A study of Mus musculus with 12 samples.

Results

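The genes described here encode 10 amino acid transporters of the plasma membrane: Slc1a4, Slc1a5, Slc3a2, Slc6a9, Slc7a1, Slc7a3, Slc7a5, Slc7a6, Slc38a1 and Slc38a2. They were chosen by name, as the rows of the authors' deposited table that carry these symbols, with the cystine carrier Slc7a11 left out. All 10 were found among the 24221 rows of the table, and all 10 were among the 13814 genes with an adjusted p-value.

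RNA sequencing was carried out on mouse (C57BL/6) acute myeloid leukaemia cells that carry MLL-AF9, a fusion product of a leukaemic chromosome translocation. The comparison set 3 samples of Riok2fl/fl MLL-AF9 cells given hydroxytamoxifen (OHT), the ligand that activates tamoxifen-dependent Cre recombinases, against 3 samples of the same cells given the vehicle ethanol (EtOH), both 72 h after addition. Both groups carry MLL-AF9 and floxed Riok2 alleles. The Cre transgene and its promoter, the number of clones and whether the samples were separate cultures are details not stated in these sources, so the p-values reflect only how these samples vary, and that variation may be technical. A group of cells that received OHT without floxed alleles is not among the labelled samples, so an effect of OHT itself and loss of Riok2 cannot be told apart. Riok2 encodes an atypical kinase that acts in the last cytoplasmic steps of small ribosomal subunit maturation. The other 6 samples (MLL-AF9 cells given 1 µM RIOK2 inhibitor or DMSO) are not analysed here.

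Amino acid transporters of the plasma membrane belong to several solute carrier families and supply dividing cells with building blocks for protein, nucleotides and glutathione. Some are exchangers, which import an amino acid only by releasing another, and others load the cell by coupling to sodium or membrane potential. SLC7 light chains such as LAT1 need the glycoprotein SLC3A2 (CD98 heavy chain) to reach the cell surface. Imported leucine and arginine are sensed by the mTORC1 pathway, and several of these genes are known targets of ATF4, the transcription factor of the amino acid response, and of MYC.

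The deposited file is a table of the authors' own comparison, so each gene has a base mean (normalised reads averaged over the 6 libraries), a log2 fold with a standard error (SE, written after ±) and an adjusted p-value, and no value per library. A gene is called here when its adjusted p-value in the authors' deposited table is under 0.05. The table does not state which group is the numerator. Riok2 had a log2 fold of -3.60 ± 0.20 (adjusted p = 7.8e-69) according to the authors' deposited table, and all folds are read as OHT over EtOH on that basis. Summed over all genes, base means came to 20307732 normalised reads in the authors' deposited table, and the size factors recovered from genes with a single read ranged from 0.697 to 1.88. By the sign of the folds of those genes, the OHT libraries had 1.88, 1.01 and 0.697, and the EtOH libraries 1.11, 0.870 and 0.783. Myeloid leukaemia genes were abundant, with Mpo, a granule peroxidase, the highest of 10 listed at a base mean of 34343 in the authors' deposited table. Among T and B lymphocyte markers, Cd3e, Cd8a, Ms4a1 and Pax5 had no read in any library, and Cd79a, at a base mean of 9.49, was called higher (1.95 ± 0.71, adjusted p = 0.015) by the authors' deposited table. Among erythroid and megakaryocyte markers, both globin genes had no read and 1 of 7 tested (Gp1bb) was called higher; the most abundant, the integrin Itga2b, had a base mean of 1053 with a log2 fold of 1.19 ± 0.74 (adjusted p = 0.17) according to the authors' deposited table. Of 10 stromal, endothelial and epithelial markers, Pecam1, which myeloid cells also express, was the highest, at a base mean of 1579, and 1 of 4 tested (Col1a1, base mean 35.3) was called higher in the authors' deposited table. Myeloid genes themselves moved in both directions: of the 10 listed, 4 were called higher and 4 lower in OHT, with Itgam at 2.44 ± 0.12 and Mpo at -2.37 ± 0.23 in the authors' deposited table. The part of these shifts in the transporter results was not tested. In bulk RNA, fewer cells that express a gene and less RNA per cell cannot be told apart.

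One transporter promoter held an exact match to the core of the amino acid response element, the composite site bound by ATF4 with C/EBP proteins. It is shown because it belongs to Slc1a4, the gene with the lowest adjusted p-value of the 10. The stretch below (GRCm38.p6, RefSeq, minus strand, chr11:20332703-20332963) runs from 250 bases before the annotated start to 11 bases after it, and the capitals mark the match.
Slc1a4: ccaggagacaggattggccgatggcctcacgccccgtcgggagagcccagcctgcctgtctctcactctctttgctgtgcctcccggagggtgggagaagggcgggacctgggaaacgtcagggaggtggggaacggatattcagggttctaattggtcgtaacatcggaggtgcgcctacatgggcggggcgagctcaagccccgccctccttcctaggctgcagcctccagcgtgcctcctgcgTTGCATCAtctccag

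The motif searched was TGATGNAA on both strands, over windows of 300 bases (250 before to 50 after the annotated start), and the match in Slc1a4 lies on the reverse strand from position -4 to 4 (no position 0). Promoters were found in the RefSeq table for 6 transporters (Slc1a4, Slc3a2, Slc6a9, Slc7a1, Slc7a6 and Slc38a2), and not for Slc1a5, Slc7a3, Slc7a5 and Slc38a1. Of these 6 genes, 1 had the motif. It was present in 3.97% of all 32851 promoter windows in the table and in at least 1 window of 2.92% of the 10376 tested genes that have one. The MYC E-box CACGTG, searched in the same way, was found in none of the 6 genes and in 11.5% of the tested genes with a promoter. No match says only that these letters are not in the window. For comparison, the motif was found in 5 of the 17 listed ATF4 pathway genes with a promoter: Asns (asparagine synthetase), Chac1 (a glutathione-degrading enzyme), Nupr1 (a stress-induced chromatin protein), Trib3 (a pseudokinase) and Atf3 (a transcription factor). Outside that list, the promoter of Slc7a11 held it at 2 places. It was also found in Slc7a7, and in Pycr1 and Got1, listed among enzymes that make or use the cargo amino acids. The matches of Slc1a4, the 5 ATF4 pathway genes and Slc7a11 are given with the motif in capitals and 10 bases on either side.
Slc1a4: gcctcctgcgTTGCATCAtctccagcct
Asns: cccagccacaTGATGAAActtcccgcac
Chac1: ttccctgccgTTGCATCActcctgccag
Nupr1: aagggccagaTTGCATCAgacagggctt
Trib3: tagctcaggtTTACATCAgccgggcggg
Atf3: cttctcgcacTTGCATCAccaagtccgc
Slc7a11 (first match): ctcatgtggcTGATGCAAacctggagaa
Slc7a11 (other match): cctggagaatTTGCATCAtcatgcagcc

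These genes were not alike in direction. Asns (-1.76 ± 0.18), Chac1 (-1.87 ± 0.22), Nupr1 (-1.55 ± 0.40) and Trib3 (-2.78 ± 0.60) were lower in OHT by their log2 folds in the authors' deposited table. Atf3 was higher at 2.44 ± 0.71 (adjusted p = 0.0017) and Slc7a11 at 0.84 ± 0.24 (adjusted p = 0.0013), by the authors' deposited table. Of the genes whose matches are not printed, Pycr1 (-2.46 ± 0.23) and Got1 (-1.27 ± 0.21) were called lower there. Slc7a7 (-0.05 ± 0.41, adjusted p = 0.94) was not called. Over the 303 tested genes with the motif in a promoter window, 83 (27.4%) were called lower and 86 (28.4%) higher, beside 23.9% lower and 26.1% higher among all 10376 tested genes with a window. Among these 303 genes the called ones were thus split almost evenly between the directions.

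All 10 transporters had a negative fold, and 9 were called lower in OHT by the authors' adjusted p-value. Of the 13814 genes tested, 23.4% were called lower and 25.5% higher in the authors' deposited table. The 10 log2 folds ranged from -3.98 to -0.32 with a median of -1.0, beside a median of 0.05 over all genes tested in the authors' deposited table. Of the 9 called, 5 fell at least 2-fold (Slc7a3, Slc1a4, Slc7a1, Slc7a5 and Slc1a5), and 4 fell by less (Slc7a6, Slc38a2, Slc3a2 and Slc38a1). The 6 transporters with a base mean of at least 1000 were all called lower, where 30.9% of tested genes with a base mean of 1000 to 10000 were. The members were chosen with earlier results of these data known, so the count describes these 10 genes only.

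**Figure D1:**
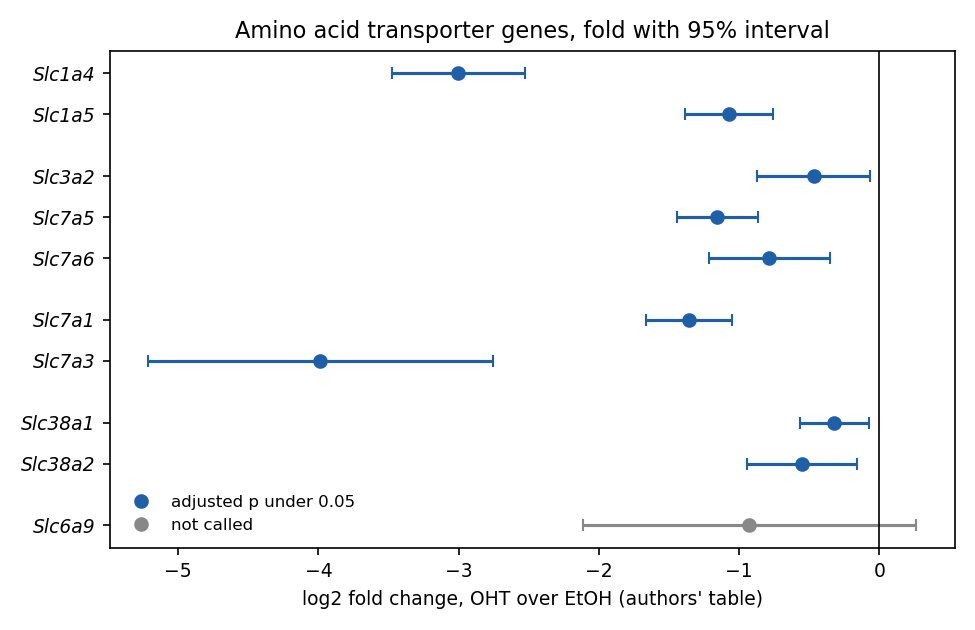
Log2 fold of each transporter gene (x axis, OHT over EtOH, authors' deposited table), with bars for the 95% interval from the authors' SE and genes grouped by role down the page. All 10 points lie below 0, Slc7a3 (-3.98) and Slc1a4 (-3.00) farthest, and the interval of Slc6a9 alone reaches above 0.

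The neutral amino acid exchangers Slc1a4 and Slc1a5 both fell, Slc1a4 by far more. Slc1a4 (ASCT1; ENSMUSG00000020142.12, GRCm38 chromosome 11, 20302180 to 20332713, minus strand) carries alanine, serine, cysteine and threonine. It had a base mean of 301 with a log2 fold of -3.00 ± 0.24 (adjusted p = 2.5e-33) according to the authors' deposited table, the 18th lowest fold among the 13814 genes tested. OHT cells held 12.5% of the EtOH level (95% interval from the authors' SE 8.99 to 17.3%). Slc1a5 (ASCT2; chromosome 7, 16781340 to 16798274, plus strand) is the main glutamine carrier of many cancer cells. With a base mean of 4297 it had a log2 fold of -1.07 ± 0.16 (adjusted p = 1.4e-10) according to the authors' deposited table, and OHT cells held 47.6% of the EtOH level (38.4 to 59.0%). The fold of Slc1a4 lay below that of Slc1a5: the difference Slc1a4 minus Slc1a5 was -1.93 on the log2 scale (95% interval -2.50 to -1.36). Such intervals treat the errors of both genes as independent, although both were read in the same libraries. In all, 11 pairs were compared, with no adjustment over them.

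The base mean and the deposited fold together give an estimate of the mean level in each group, since the groups are of equal size. For Slc1a4 these were 66.9 normalised reads in OHT and 536 in EtOH, and for Slc1a5 2770.4 in OHT and 5824 in EtOH. They are estimates from the authors' deposited table with the error of the fold, and show no spread between libraries. Per kilobase of exon, Slc1a5 stood at 1002 normalised reads in OHT and 2107 in EtOH, and Slc1a4 at 17.0 in OHT and 136 in EtOH, so Slc1a5 was the more abundant of the pair in both groups.

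**Figure D2:**
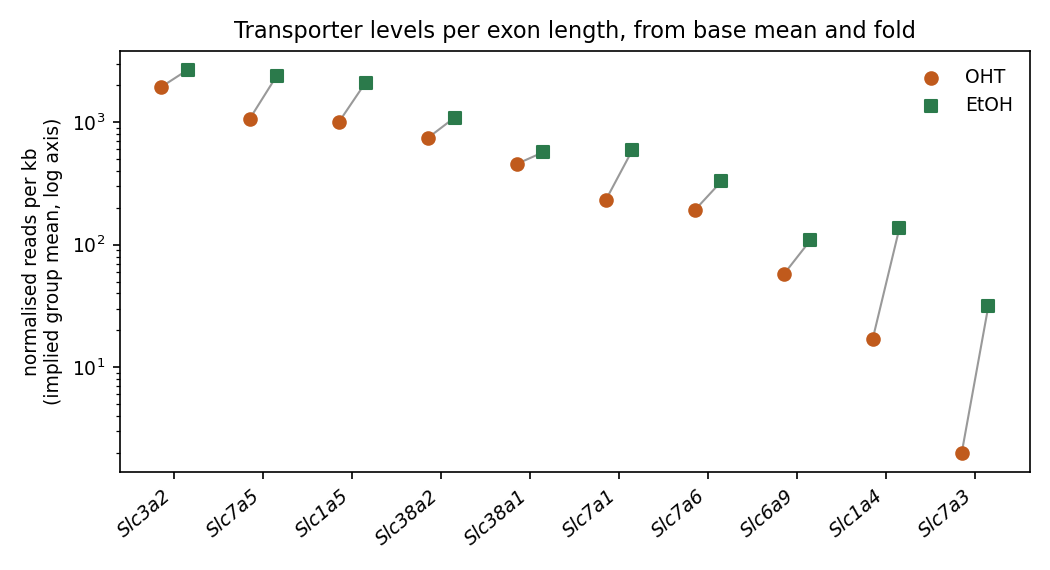
Level of each transporter in normalised reads per kilobase of exon (log y axis), as the group means implied by the base mean and fold of the authors' deposited table, OHT as circles and EtOH as squares, with genes in falling order of base mean per kilobase. Every OHT point lies below its EtOH point, and the gap is widest for Slc7a3 (2.00 in OHT, 31.6 in EtOH) and Slc1a4 (17.0 in OHT, 136 in EtOH).

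In the CD98 complex, the light chain genes Slc7a5 and Slc7a6 fell, and the heavy chain gene Slc3a2 fell least. Slc7a5 (LAT1; chromosome 8, 121881150 to 121907694, minus strand) exchanges glutamine for leucine and other large neutral amino acids. Its base mean was 6071 and its log2 fold -1.15 ± 0.15 (adjusted p = 4.3e-14) according to the authors' deposited table, which puts OHT at 44.9% of EtOH (36.9 to 54.8%). Slc7a6 (y+LAT2; chromosome 8, 106168857 to 106198706, plus strand) exchanges cationic amino acids for neutral ones with sodium. It had a base mean of 977 with a log2 fold of -0.78 ± 0.22 (adjusted p = 0.0012) according to the authors' deposited table, with OHT at 58.1% of EtOH (43.1 to 78.4%).

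Slc3a2 (chromosome 19, 8706882 to 8723369, minus strand) anchors these light chains in the membrane and was the most abundant of the 10 per exon length. Its base mean was 6959.9 and its log2 fold -0.47 ± 0.21 (adjusted p = 0.047) according to the authors' deposited table, so OHT stood at 72.3% of EtOH with an interval of 54.7 to 95.6%. This call lay close to the threshold: with every gene that has a p-value in the adjustment, the adjusted p was 0.06. The difference Slc7a5 minus Slc3a2 was -0.69 on the log2 scale (95% interval -1.18 to -0.19), and that of Slc7a6 minus Slc3a2 was -0.32 (-0.91 to 0.27), which includes 0. Slc7a5 and Slc7a6 did not separate from each other (difference -0.37, 95% interval -0.89 to 0.15).

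Other partners of the CD98 heavy chain did not follow LAT1. Slc7a8 (LAT2), a further carrier of neutral amino acids, rose with a log2 fold of 1.70 ± 0.54 (adjusted p = 0.0047) according to the authors' deposited table, and the cystine carrier Slc7a11 rose as given above. Slc7a7 (y+LAT1) had -0.05 ± 0.41 (adjusted p = 0.94) there. These 3 genes, and the relatives named below, were singled out after their values were seen. The SE of Slc7a8 was wide for its level: 98.9% of tested genes within 1.5-fold of its base mean had a lower one. The fold of Slc7a5 lay below that of Slc7a8: the difference Slc7a5 minus Slc7a8 was -2.86 on the log2 scale (95% interval -3.96 to -1.76).

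Summed per kilobase of exon, the 5 light chains read (Slc7a5, Slc7a6, Slc7a7, Slc7a8 and Slc7a11) came to 2007 normalised reads in OHT and 3017 in EtOH. Slc7a5 made up 53.3% of that sum in OHT and 78.9% in EtOH. Slc7a8 made up 25.2% in OHT and 5.16% in EtOH, and Slc7a11 10.1% in OHT and 3.76% in EtOH. The heavy chain stood at 0.963 times the summed light chains in OHT and 0.886 times in EtOH. The shares carry the error of the folds, which for Slc7a8 spans 156 to 679% of EtOH, and exon lengths come from an annotation that need not be the authors' own. They also carry the pull of the prior. With it undone, the implied means of Slc7a8 were 2168 normalised reads in OHT and 536 in EtOH, beside 2068 and 636 from the deposited fold.

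**Figure D3:**
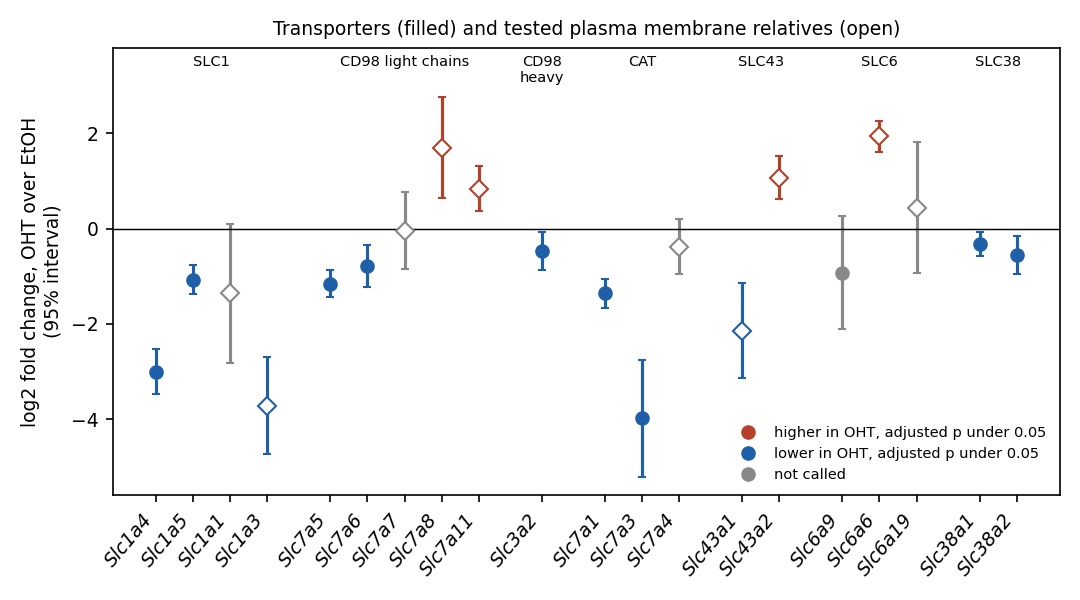
Log2 fold (y axis, OHT over EtOH, authors' deposited table) with 95% intervals for the 10 transporters (filled circles) and the tested plasma membrane relatives of the same families, with the SLC43 pair added (open diamonds). The 10 transporters lie below 0, and the relatives lie on both sides: Slc7a8 (1.70), Slc7a11 (0.84), Slc43a2 (1.07) and Slc6a6 (1.94) were called higher, Slc1a3 (-3.72) and Slc43a1 (-2.15) lower, and Slc1a1 (-1.36), Slc7a4 (-0.38), Slc7a7 (-0.05) and Slc6a19 (0.44) were not called.

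The cationic amino acid carriers Slc7a1 and Slc7a3 both fell. Slc7a1 (CAT1; chromosome 5, 148327410 to 148399904, minus strand) is the widespread importer of arginine, lysine and ornithine. It had a base mean of 2964 with a log2 fold of -1.36 ± 0.16 (adjusted p = 9.1e-17) according to the authors' deposited table, and OHT stood at 39.0% of EtOH (31.5 to 48.2%). Slc7a3 (CAT3; chromosome X, 101079210 to 101086020, minus strand) carries the same substrates and is best known from brain. Its log2 fold of -3.98 ± 0.63 (adjusted p = 2.1e-09) according to the authors' deposited table was the 3rd lowest of all 13814 genes tested, at a base mean of 48.9.

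For Slc7a3 the implied means were 5.81 normalised reads in OHT and 92.0 in EtOH, and OHT stood at 6.32% of EtOH (2.69 to 14.8%). The deposited folds are pulled towards 0 by a prior, which matters most for genes with a wide SE, whether from few reads or from variable libraries. With the prior undone by calculation, the log2 fold of Slc7a3 was -5.17 ± 0.81, with implied means of 2.65 normalised reads in OHT and 95.1 in EtOH, and that of Slc1a4 was -3.08 ± 0.25. More abundant genes with a wide SE moved too. Undone in the same way, Trib3 stood at -3.50 ± 0.76 and Atf3 at 3.68 ± 1.06, beside -2.78 and 2.44 as deposited. The difference Slc7a3 minus Slc7a1 was -2.63 on the log2 scale in the deposited folds (95% interval -3.89 to -1.36). Per kilobase of exon, Slc7a1 exceeded Slc7a3 in both groups, at 232 against 2.00 normalised reads in OHT and 594 against 31.6 in EtOH. The third carrier of this kind, Slc7a2 (CAT2), had a base mean of 1366 with a log2 fold of 2.19 ± 0.72 and lacked a p-value in the authors' deposited table, so it could not be called. Its SE was wide for its level: 99.6% of tested genes within 1.5-fold of its base mean had a lower one.

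The sodium-coupled neutral amino acid transporters Slc38a1 and Slc38a2 fell modestly. Both import glutamine and other small neutral amino acids, and Slc38a2 is known for its induction on amino acid starvation. Slc38a1 (SNAT1; chromosome 15, 96571418 to 96642913, minus strand) had a base mean of 5515 with a log2 fold of -0.32 ± 0.13 (adjusted p = 0.023) according to the authors' deposited table. This was the smallest fall of the 10, with OHT at 80.0% of EtOH (67.4 to 94.9%). Slc38a2 (SNAT2; chromosome 15, 96687392 to 96699730, minus strand) had a base mean of 4273 with a log2 fold of -0.55 ± 0.20 (adjusted p = 0.015) according to the authors' deposited table, with OHT at 68.2% of EtOH (51.9 to 89.7%). Their folds could not be told apart within their errors: the difference Slc38a2 minus Slc38a1 was -0.23 (95% interval -0.69 to 0.24).

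Slc6a9 (GLYT1; chromosome 4, 117834506 to 117875198, plus strand), the sodium- and chloride-coupled glycine transporter, was the only one of the 10 not called. It had a base mean of 306 with a log2 fold of -0.93 ± 0.61 (adjusted p = 0.20) according to the authors' deposited table. OHT cells held 52.6% of the EtOH level, with an interval from 23.1 to 120.1%. That interval holds both a fall of more than 4-fold and a small rise. With the prior undone by calculation, the log2 fold of Slc6a9 was -1.17 ± 0.77 and its OHT level 44.4% of EtOH. The median SE of tested genes within 1.5-fold of its base mean was 0.21, and 97.6% of those had a lower SE than Slc6a9. Slc1a4, with almost the same base mean, had an SE of 0.24. Which libraries set the error of Slc6a9 cannot be seen without values per library. Of genes on the other strand, Ccdc24 overlaps Slc6a9 most, over 27.8% of its 5141 exon bases in all annotated transcripts. The levels per kilobase rest on its protein-coding transcripts only (3.68 kb). The strand setting of the counting was not stated. Ccdc24 had a base mean of 0.971 in the authors' deposited table.

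Ordered by level per exon length (base mean per kilobase), the transporters ran Slc3a2 (2303), Slc7a5 (1726), Slc1a5 (1555), Slc38a2 (917), Slc38a1 (514), Slc7a1 (413), Slc7a6 (260.4), Slc6a9 (83.1), Slc1a4 (76.7) and Slc7a3 (16.8 normalised reads). Summed over the 10, the implied level was 5706 normalised reads per kilobase in OHT and 10024 in EtOH, which puts OHT at 56.9% of EtOH. Slc3a2 alone made up 33.9% of the sum in OHT and 26.7% in EtOH, and Slc7a5 18.8% in OHT and 23.8% in EtOH. The steepest falls were in genes of low level: Slc1a4 and Slc7a3 together with Slc6a9 held the last 3 places in the order of level.

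**Figure D4:**
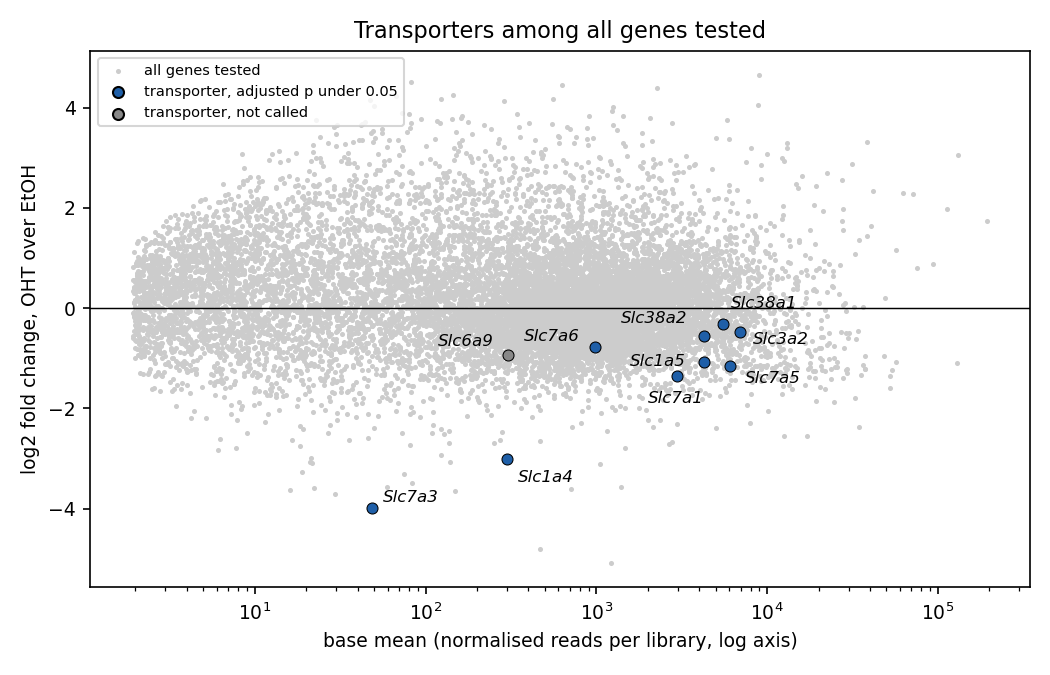
Log2 fold (y axis, OHT over EtOH) against base mean (log x axis, normalised reads per library) for all 13814 tested genes of the authors' deposited table (grey), with the 10 transporters marked. Slc7a3 and Slc1a4 lie near the lower edge of the cloud, and the abundant Slc38a1, Slc3a2 and Slc38a2 lie within it just below 0.

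Other amino acid transporters of the plasma membrane were mixed, where the 10 were all below 0. Of 31 listed, 14 had no read in any library and 12 had an adjusted p-value. Of these 12, 5 were called higher and 2 lower (25.5% and 23.4% over all tested genes). Their median log2 fold was 0.21 in the authors' deposited table. The taurine transporter Slc6a6, the most abundant of them (base mean 6086), rose with a log2 fold of 1.94 ± 0.16 (adjusted p = 1.2e-30), and Slc43a2 (LAT4, base mean 3738), a facilitator for leucine and its kin, rose by 1.07 ± 0.23 (adjusted p = 1.3e-05), both in the authors' deposited table. Its close relative Slc43a1 (LAT3) fell by 2.15 ± 0.51 on the log2 scale (adjusted p = 9.8e-05) according to the authors' deposited table, at a base mean of 52.8, and the difference Slc43a1 minus Slc43a2 was -3.22 (95% interval -4.31 to -2.13). The steepest fall was that of the glutamate and aspartate carrier Slc1a3, at -3.72 ± 0.52 (adjusted p = 8.4e-12) with a base mean of 29.4 in the authors' deposited table.

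Transporters of the lysosomal membrane were mostly higher in OHT. Of 9 tested, 8 were called higher and none lower, beside the 25.5% of all tested genes called higher, with a median log2 fold of 1.00 in the authors' deposited table. They include the proton-coupled carrier Slc36a1 (1.09 ± 0.21), the peptide and histidine transporter Slc15a3 (3.02 ± 0.25) and Slc38a9 (0.66 ± 0.21), the arginine sensor of mTORC1 on the lysosome, in the authors' deposited table. Of 11 mitochondrial amino acid carriers, 3 were called lower and 1 higher (median -0.20), the serine carrier Sfxn1 at -0.84 ± 0.13, its relative Sfxn3 at 1.25 ± 0.16 and the aspartate-glutamate carrier Slc25a12 at -0.20 ± 0.12 (adjusted p = 0.16) according to the authors' deposited table. Over all tested genes, 23.4% were called lower. Of 18 transporters for other nutrients, 6 were called higher and 5 lower (median -0.05). Among these in the authors' deposited table were the glucose carriers Slc2a3 (1.54 ± 0.27) and Slc2a6 (2.27 ± 0.28), the folate carrier Slc19a1 (-1.97 ± 0.15) and the lactate exporter Slc16a3 (0.02 ± 0.20, adjusted p = 0.95).

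**Figure D5:**
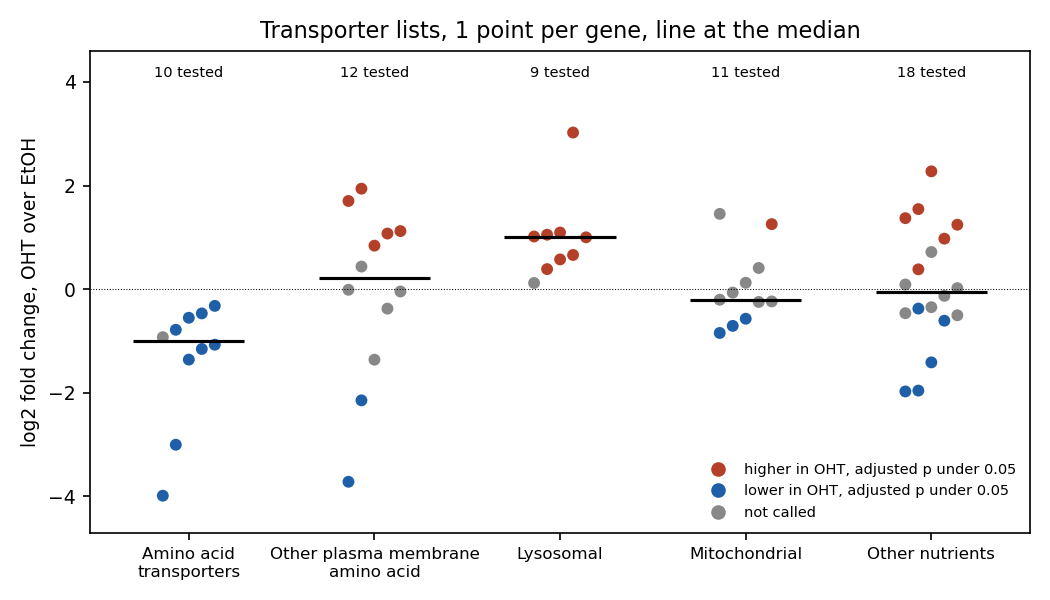
Log2 fold (y axis, OHT over EtOH, authors' deposited table) of every tested gene in 5 transporter lists, 1 point a gene, coloured by call, with a line at each list's median. The medians are -1.0 for the 10 amino acid transporters, 0.21 for the other plasma membrane amino acid transporters, 1.00 for the lysosomal, -0.20 for the mitochondrial and -0.05 for the other nutrient transporters.

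Atf4 and Myc, regulators known to act on several of these transporters, fell in OHT at the RNA level. Whether either fall bears on the transporter results was not tested. Atf4 (base mean 14012) had a log2 fold of -1.61 ± 0.14 (adjusted p = 2.3e-29) and Myc -1.63 ± 0.11 (adjusted p = 1.1e-43) according to the authors' deposited table, while the MYC partner Max stood at 0.04 ± 0.13 (adjusted p = 0.80). Over all tested genes, 23.4% were called lower and 25.5% higher. Of 18 ATF4 pathway genes, 7 were called lower, Atf4 among them, and 2 higher (median -0.52). In the authors' deposited table the pseudokinase Trib3 stood at -2.78 ± 0.60, the transcription factor Atf3 at 2.44 ± 0.71 and the phosphatase subunit Ppp1r15b at 0.23 ± 0.11 (adjusted p = 0.085). Of 18 tested enzymes that make or use the cargo amino acids, 12 were called lower and 2 higher (median -1.33). Among them, in the authors' deposited table, were the serine synthesis enzyme Psat1 (-2.29 ± 0.11), the branched-chain aminotransferase Bcat1 (-3.07 ± 0.47), the arginase Arg2 (3.51 ± 0.39) and glutamate dehydrogenase Glud1 (0.10 ± 0.12, adjusted p = 0.51). Of 19 genes of amino acid sensing by mTORC1, 7 were called higher and 4 lower (median 0.13). The leucyl-tRNA synthetase Lars, at -1.34 ± 0.12, and the Rag GTPases Rragc (0.74 ± 0.12) and Rragd (2.99 ± 0.57) were among these in the authors' deposited table.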

How the data were processed

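RNA sequencing libraries were aligned and counted by the authors, and the submitters' processing notes name HTSeq (0.9.1), STAR (2.7.2b), DESeq2, DESeq, Trimmomatic (0.38.0) and the mouse build mm10. Annotation and counting options were not stated. The authors deposited for each gene a raw and an adjusted p-value, a Wald score, a log2 fold with SE, and the base mean, a signal counted in normalised reads. The deposited score equalled the fold over its SE within 7.6e-08, and the deposited adjusted p-value a Benjamini-Hochberg adjustment over 13814 genes within 2.3e-07. The table has 0 columns per sample, so read totals per library, intervals between replicates and a test of the samples could not be had. Relative depth was had only as the recovered size factors.

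The SE never exceeded 0.747 and fell again for genes with the fewest reads, as the error of a fold shrunk by a prior does. The prior was undone from that limit, assuming an approximately normal likelihood, in a calculation checked on simulated data. The simulation gave every gene the same dispersion and every library the same depth. Its accuracy for genes with a wide SE for their level, such as Slc7a3 and Slc7a8, was not tested. Group means were implied by base mean and deposited fold. Exon lengths and positions came from GENCODE M21 (GRCm38, the assembly of mm10), promoters from RefSeq (GRCm38.p6). Python 3.11.15, pandas 2.3.3 and scipy 1.17.1 were used. Intervals are 95%, fold ± 1.96 SE.

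Members and lists were chosen with earlier results of these data known. Of 179 listed names, 178 were found, 3 by an older symbol. Named genes were the 10 members, Riok2, and of each other list the 2 most abundant tested genes and the largest called rise and fall; of marker lists, the most abundant gene. Slc38a9, Itgam, Gp1bb, Col1a1, the named lymphocyte markers at no read, Ccdc24, the genes with motif matches and the plasma membrane relatives outside this rule (Slc7a2, Slc7a4, Slc7a7, Slc7a8, Slc7a11, Slc43a1, Slc1a1 and Slc6a19) were added after their values were seen. Alternatives were other thresholds, adjustments, filters, scalings and the prior.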

Additional observations from a re-analysis of the deposited data

How the results depend on the processing

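None of the alternatives could turn the sign of a transporter's fold. Thresholds, adjustments and filters leave the folds as they are, and the scalings and the undone prior did not move them towards 0. A base mean of at least 100 left out Slc7a3. The number called lower was 9, and became 5 with Bonferroni adjustment (9.67% of all tested genes lower), 5 with a minimum fold of 2 (7.3% lower), 6 at an adjusted p under 0.01 (19.1% lower), 8 with a base mean of at least 100 (30.6% lower) and 8 when every gene with a p-value was adjusted (17.9% lower). Slc1a4, Slc1a5, Slc7a1 and Slc7a5 kept their call under all of these, and Slc7a3 under all but the filter that left it out. Slc38a1, Slc38a2 and Slc3a2 lost theirs at an adjusted p under 0.01, with Bonferroni adjustment and with a minimum fold of 2, Slc7a6 under the last 2 of these, and Slc3a2 also when every gene with a p-value was adjusted. Centring on the median of all genes (shift 0.050 on the log2 scale) or on equal summed reads (shift 0.072) changed no member's call. Either scaling gave 7 higher for the lysosomal list, 6 lower and 5 higher for other nutrients, and 5 lower for amino acid sensing. Equal summed reads also gave 4 lower for the mitochondrial list. Of all tested genes, 25.2% were lower and 23.9% higher when centred, and 26.1% lower and 23.2% higher with equal summed reads. With Bonferroni adjustment (11.1% of all tested genes higher), counts lower and higher were 1 and 2 for the other plasma membrane amino acid transporters. They were 0 and 4 (lysosomal), 1 and 1 (mitochondrial) and 3 and 4 (other nutrients). For the ATF4 pathway they were 4 and 0, for cargo enzymes 11 and 2, and for amino acid sensing 2 and 4. With a minimum fold of 2 (13.6% higher), they were 2 and 4 (other plasma membrane), 0 and 5 (lysosomal) and 0 and 1 (mitochondrial). For other nutrients they were 3 and 4, for the ATF4 pathway 6 and 1, for cargo enzymes 10 and 2, and for amino acid sensing 1 and 4. With a base mean of at least 100 (29.9% higher), they were 0 and 4 (other plasma membrane), 0 and 8 (lysosomal) and 3 and 1 (mitochondrial). For other nutrients they were 5 and 5, for the ATF4 pathway 7 and 2, for cargo enzymes 12 and 1, and for amino acid sensing 4 and 3. Fewer genes pass a stricter rule by construction. No paired analysis was possible because the table holds no columns per sample, and leaving out a replicate and a second count tool were not run for the same reason. Depth limits Slc7a3, whose fold rests on few reads in OHT.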
